A study of Oryza sativa with 4 samples.

Results

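The fuzziest nucleosomes of the WT rice map were examined, which are the nucleosomes whose sequenced fragments were most widely scattered around their centre. They were selected on measured values, namely the WT columns of the nucleosome table. On the 12 nuclear chromosomes, 1394158 nucleosomes had a WT summit (the position of highest occupancy) and a WT occupancy signal of at least 10 at it, and are called eligible here. The 5% of them with the highest WT fuzziness score are the 69708 fuzziest nucleosomes, which are 4.12% of the 1690300 nucleosomes listed. The minimum of 10 removed 1273 of the 1395431 nuclear WT summits.

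The maps came from MNase-seq of 30-day-old seedlings with 2 libraries of *oschz1-1* and 2 of WT. The WT libraries are titled NIP, and the study gives the rice of its RNA work as *japonica* cultivar Nipponbare. All plants had days of 14 h at 30 °C and nights of 10 h at 28 °C. The *oschz1-1* plants are a homozygous, transgene-free line with a deletion of 1 base in the *OsChz1* gene, made with CRISPR/Cas9, and a single mutant line was profiled. The labels give their genotype as oschz1, and the name of the allele is taken from the study. The authors merged the libraries of each genotype and deposited 1 value per genotype for each nucleosome. No difference could therefore be set against the spread between replicates, no test was made, and the depth behind the values is unknown.

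A nucleosome core is a stretch of DNA wrapped around a histone octamer, and micrococcal nuclease (MNase) digests the linker DNA between nucleosomes. In chromatin pooled from many cells, a nucleosome that takes the same place in most cells gives a sharp peak of fragments. A nucleosome that takes different places in different cells gives a broad one, which is called fuzzy or delocalised. OsChz1 is a histone chaperone, a protein that escorts histones outside the nucleosome, and it binds dimers of H2B with either H2A or its variant H2A.Z. The fuzziness score is taken from DANPOS and measures how far the fragments of a nucleosome scatter, so that a higher score means a less defined position.

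The WT scores that chose the fuzziest nucleosomes lay between 60.5 and 71.4, with a median of 61.9, against a median of 53.3 over all eligible nucleosomes. The limit fell at 60.5 in a dense part of the distribution. The last nucleosomes inside it, with summits at 5687611 of chromosome 3 and 4902791 of chromosome 12 (all positions are of build MSU7), and the first ones outside it, at 10188151 of chromosome 2 and 30682601 of chromosome 3, all had a WT score of 60.5. In *oschz1-1* the pair inside had scores of 51.6 and 54.5, and the pair outside had scores of 59.8 and 60.6. The limit thus separated nucleosomes of nearly equal WT score that did not keep their order in the mutant map.

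The nucleosomes with the highest WT scores were weakly occupied. The highest score, 71.4, belonged to a nucleosome of chromosome 1 with its WT summit at 13265111. Its occupancy signal was listed at 0 in *oschz1-1* and at 10.3 in WT, and WT summits lay 110 bp to either side. The next, on chromosome 6 at 946771, had a signal of 3.91 in *oschz1-1* and 10.3 in WT. It was followed by a nucleosome of chromosome 3 at 35839431, with 4.57 in *oschz1-1* and 10.3 in WT. The nucleosome of chromosome 9 at 20188421 had 3.28 in *oschz1-1* and 11.4 in WT. These 4 had no summit in *oschz1-1*. The fifth, on chromosome 11 at 7799691, had a summit in *oschz1-1* at 7799656 with a signal of 11.4, against 10.4 in WT. Its score was 59.4 in *oschz1-1* and 71.1 in WT, so that this nucleosome was recovered in the mutant map but no longer among its fuzziest.

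As a group, the fuzziest nucleosomes had low occupancy. Their WT signal had a median of 12.5 with quartiles of 11.1 and 14.5, against a median of 16.5 with quartiles of 13.3 and 20.8 over all eligible nucleosomes. The best-positioned nucleosomes, the 69708 with the lowest WT scores, had a median of 20.5 with quartiles of 15.2 and 27.5. When the eligible nucleosomes were divided into deciles of WT signal, 14.7% of the lowest decile and 0.0925% of the highest were among the fuzziest. The lowest 3 deciles held 47940 of them, which is 68.8%. High occupancy did not exclude a fuzzy position, as 129 of the fuzziest nucleosomes lay in the highest decile, with signals above 25.3.

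The fuzziest nucleosomes were also crowded. The nearest WT summit was a median of 120 bp away, with quartiles of 110 and 130 bp, against a median of 165 bp with quartiles of 130 and 200 bp for all eligible nucleosomes and 195 bp for the best-positioned ones. No WT summits in the map were closer than 100 bp. A neighbour closer than the length of DNA in a nucleosome core, called an overlapping neighbour here, was found for 61803 of the fuzziest nucleosomes (88.7%), against 34.7% of the eligible and 2.56% of the best-positioned nucleosomes. Overlapping neighbours flanked on both sides 38.3% of the fuzziest and 4.71% of the eligible nucleosomes. The distance between the flanking summits had a median of 280 bp around the fuzziest nucleosomes, against 425 bp around the eligible ones. Isolated fuzzy nucleosomes were rare, with 471 of them (0.676%) more than 200 bp from the nearest summit, against 23.4% of the eligible nucleosomes. The fragments that give the score and those that give the summits are the same, so that crowding and the score are not independent measurements, and the part of neighbouring fragments in the score was not tested.

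The share of fuzziest nucleosomes was highest where low occupancy and close spacing met. Among eligible nucleosomes with a neighbour at 100 to under 120 bp and a signal of 10 to 12, 12886 of 30655 (42.0%) were among the fuzziest. At the same spacing and a signal of at least 20 this share was 1.82%. At the same signal of 10 to 12 and a nearest neighbour at 200 to under 300 bp it was 0.786%. With a signal of at least 20 and the nearest neighbour beyond the core length but under 200 bp, the most frequent spacing class, 77 of 171935 (0.0448%) were among the fuzziest. The share was thus low wherever either the signal was high or the neighbours were far.

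**Figure D1:**
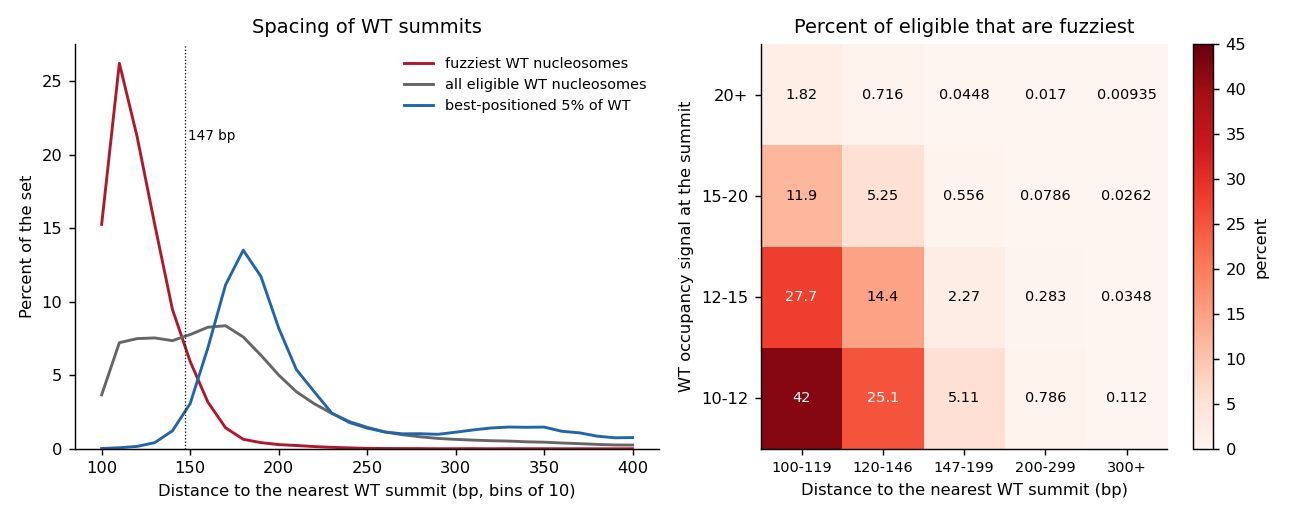
Left, the distance in bp from a WT summit to the nearest other WT summit, as the percent of each set per bin of 10 bp, for the fuzziest WT nucleosomes, all eligible ones and the best-positioned 5%, with a dotted line at the core length. Right, the percent of eligible WT nucleosomes that are among the fuzziest, by distance to the nearest summit and by WT occupancy signal. The fuzziest nucleosomes sit mostly to the left of the line, and their share is 42.0% in the class of closest spacing and lowest signal.

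The flanking nucleosomes differed from the fuzziest ones. In WT, 57028 of the 69707 fuzziest nucleosomes with a neighbour on both sides (81.8%) had a lower signal than both neighbours, against 32.7% of the eligible nucleosomes. The neighbours had a median signal of 19.1, above the 16.5 of neighbours of all eligible nucleosomes, and a median score of 54.7, also above the 53.3 of those neighbours. The typical fuzzy nucleosome was therefore a weak summit between more occupied ones, which were not better positioned than neighbours in general. From the next but one neighbour outwards, the median signal was close to that of eligible nucleosomes, with 16.7 at the tenth place.

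Fuzzy nucleosomes did not form long arrays, which would be rare in any case with 5% of the eligible nucleosomes selected. Of the 69708, 64183 (92.1%) had no fuzziest nucleosome directly beside them, 2670 pairs held 5340, and 59 runs of 3 and 2 runs of 4 held the rest. The directly following nucleosome was among the fuzziest in 4.01% of cases, against 5.0% after eligible nucleosomes in general. At the second place the share was 7.38%, at the third 6.44%, and at the tenth still 5.49%. Further fuzzy nucleosomes were thus less frequent directly beside a fuzzy one and more frequent beyond the adjacent nucleosome. The mirror selection described below showed the same low share at the first place and higher share at the second, with 3.86% and 7.49%.

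**Figure D2:**
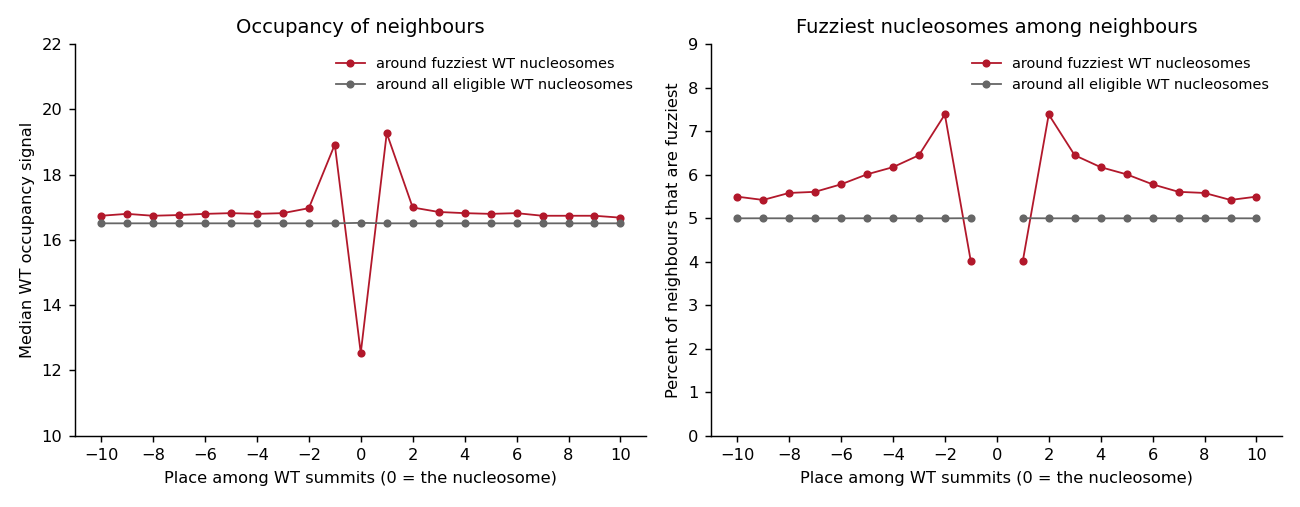
Left, the median WT occupancy signal at the 10 nucleosomes before and after the fuzziest WT nucleosomes and before and after all eligible ones, by place among the WT summits. Right, the percent of the nucleosomes at each place that are themselves among the fuzziest. The fuzziest nucleosomes lie at 12.5 between neighbours near 19, and further fuzzy nucleosomes are less frequent at the first place (4.01%) and more frequent at the second (7.38%).

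Both runs of 4 and 1 of the 59 runs of 3, the one at the lowest position on the lowest chromosome number, are given as examples. On chromosome 4, a run of 4 extended from 10702311 to 10702801 with a mean step of 163 bp. Its occupancy signals were 20.5, 17.7, 14.6 and 20.0 in *oschz1-1*, against 17.3, 11.4, 11.7 and 11.5 in WT, and its scores were 57.9, 58.3, 61.9 and 53.9 in *oschz1-1*, against 60.7, 60.8, 60.7 and 60.9 in WT. All of its signals were higher in *oschz1-1*, where 3 of the 4 summits were listed. On chromosome 9, a run of 4 from 21506751 to 21507076 had a mean step of 108 bp. Its signals were 13.1, 13.5, 18.1 and 6.57 in *oschz1-1*, against 17.9, 12.5, 12.2 and 11.9 in WT. The outer summits of this run were missing in *oschz1-1*, and the third nucleosome had a score of 46.4 in *oschz1-1* and 60.9 in WT. The run of 3 on chromosome 1, from 603231 to 603491, lacked its middle summit in *oschz1-1*, where the signals were 10.9, 7.81 and 10.5, against 10.6, 10.7 and 15.3 in WT.

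Next, the retention of the fuzziest nucleosomes in *oschz1-1* was examined. A summit was listed in *oschz1-1* for 41098 of them (59.0%) and was missing for 28610 (41.0%). Of the 41098, 41042 had an *oschz1-1* signal of at least 10. The 28610 had a median *oschz1-1* signal of 8.30. A missing summit thus means that none was listed and need not mean an absent signal. Among all eligible WT nucleosomes, 20.0% had no *oschz1-1* summit. The share was higher in each higher class of WT fuzziness, being 13.3% in the lowest 5% of the scores, 18.3% in the eleventh of 20 equal classes and 29.9% in the class just below the fuzziest. Because values selected as extreme in a single map lie nearer the middle in another map, the same selection was made with the genotypes exchanged. The mirror selection took the 70396 fuzziest of the 1407915 eligible *oschz1-1* nucleosomes. Of these, 41.2% had no summit in WT, against 20.8% of all eligible *oschz1-1* nucleosomes. The loss of fuzzy summits was therefore as large when read from *oschz1-1* to WT as when read from WT to *oschz1-1*. In another count, a nucleosome was kept only if any *oschz1-1* summit, listed for it or not, lay within 73 bp. By this rule 37.3% of the fuzziest and 22.1% of the eligible nucleosomes had none. The rule accepts summits listed for other nucleosomes but rejects own summits farther away, so it is not simply more lenient.

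The share of missing summits was then compared within classes of occupancy and nearest distance, which are wide and do not make either measure equal. In 16 classes of nearest distance and WT signal that held at least 20 of the fuzziest nucleosomes, the share without an *oschz1-1* summit was higher for the fuzziest than for the other eligible nucleosomes in 13. The difference ranged from -9.99 to 19.4 percentage points, with a median of 5.05. It was 53.1% against 44.0% at 100 to under 120 bp and a signal of 10 to 12, the class with the highest number of fuzziest nucleosomes, and 37.6% against 18.3% at this spacing and a signal of at least 20. The latter class has no upper bound, and its fuzziest nucleosomes had the lower signals. Deciles 8, 9 and 10 of WT signal held 1138, 399 and 129 of the fuzziest. Of these, 31.4%, 34.8% and 25.6% had no *oschz1-1* summit, against 11.7%, 8.87% and 4.96% of the other eligible nucleosomes. The 3 classes with a lower share among the fuzziest had neighbours at 200 bp or more and together held few of them. In the mirror selection the share was higher in 11 of 15 such classes, with a median difference of 4.32 percentage points. Its 4 lower classes included those with the nearest summit beyond the core length but under 200 bp and a signal of 10 to 12 or 12 to 15, which held 3781 and 2545 nucleosomes. At a minimum signal of 20 in place of 10, 19.3% of the fuzziest and 8.43% of the eligible WT nucleosomes had no *oschz1-1* summit, so that the level of loss depended on the minimum while the fuzziest stayed above the eligible ones.

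Where a summit was missing, the nucleosomes around it were usually still there. Around the 28610 fuzziest nucleosomes without an *oschz1-1* summit, both neighbours had one in 77.3% of cases, against 68.8% around all eligible nucleosomes without one. With or without an own summit in *oschz1-1*, the share was 63.8% around the fuzziest and 64.1% around the eligible nucleosomes. A missing neighbour was therefore more frequent around fuzzy nucleosomes that kept their summit than around those that lost it. The nearest *oschz1-1* summit was a median of 100 bp away, with quartiles of 80 and 120 bp, against 130 bp for the eligible nucleosomes without a summit. Within 500 bp to either side there was a mean of 4.43 summits in *oschz1-1*, against 5.45 in WT, the fuzzy summit included. The set was chosen for a missing summit, and all eligible nucleosomes without an *oschz1-1* summit also had fewer, with 3.68 in *oschz1-1* and 4.52 in WT. Around fuzzy nucleosomes that kept their summit the means were 4.99 in *oschz1-1* and 5.32 in WT, and around all eligible nucleosomes, with or without a summit, 4.30 in *oschz1-1* and 4.45 in WT. In the mirror selection the order was the opposite, with 5.44 summits in *oschz1-1* and 4.38 in WT around fuzzy *oschz1-1* summits missing in WT.

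Fuzziness scores moved towards the middle of the distribution. The fuzziest WT nucleosomes had a median score of 58.5 in *oschz1-1*, against 61.9 in WT, and the score was lower in *oschz1-1* for 51430 of them (73.8%), against 43.3% of all eligible nucleosomes. These values include nucleosomes without an *oschz1-1* summit. The mirror selection had a median of 61.9 in *oschz1-1* and 58.6 in WT, and the score was lower in WT for 74.1%. The median difference to the map of selection was -3.69 for the fuzziest WT nucleosomes and -3.74 for the mirror selection. A difference between the genotypes and the return of extreme values to the middle cannot be told apart from the WT selection alone. The median in the other map was above the score of the map of selection in the low classes and below it in the high classes of both selections.

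**Figure D3:**
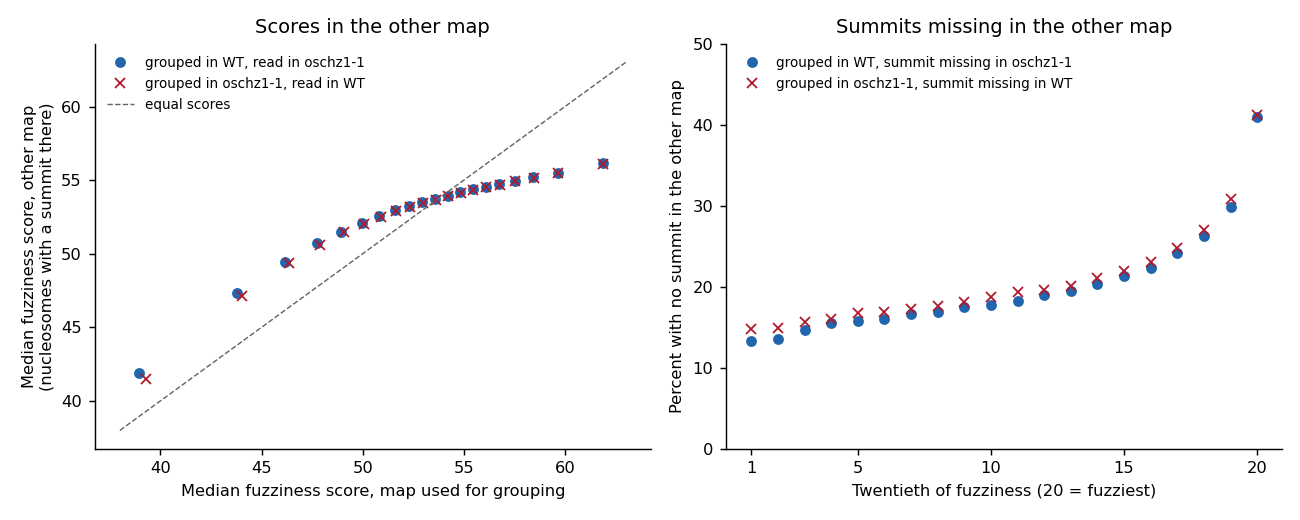
Eligible nucleosomes in 20 equal classes of the fuzziness score, grouped in WT and read in *oschz1-1* (dots) or grouped in *oschz1-1* and read in WT (crosses). Left, the median score in the other map, over nucleosomes with a summit there, against the median score in the map of grouping, with a dashed line of equal scores. Right, the percent with no summit in the other map. Dots and crosses lie almost on each other, and the fuzziest class has the highest loss in either direction, 41.0% and 41.2%.

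The scores in *oschz1-1* were split by the presence of a summit. What a score describes where no summit is listed is not given in the sources used here. The nucleosome of chromosome 1 at 13265111, for example, had a score of 77.6 in *oschz1-1* at a signal of 0. The 41098 fuzziest nucleosomes with an *oschz1-1* summit had a median score of 56.1 in *oschz1-1*, against 61.7 in WT, and 93.6% had a lower score in *oschz1-1*, against 49.3% of the eligible nucleosomes with one. The 28610 without one had a median score of 63.2 in *oschz1-1*, against 62.1 in WT, and 45.3% had a lower score in *oschz1-1*, against 19.6% of the eligible nucleosomes without one. The eligible nucleosomes without an *oschz1-1* summit had a median score of 59.9 in *oschz1-1* and 54.7 in WT, so that a higher score at missing summits was not particular to the fuzziest. For comparison, all eligible WT nucleosomes with a summit in both maps had a median of 53.0 in *oschz1-1* and 52.9 in WT. The fuzziest nucleosomes with a summit in both maps therefore remained above the eligible ones in *oschz1-1*, by 3.14 in the median. In the mirror selection the medians were 61.7 in *oschz1-1* and 56.1 in WT with a WT summit, and 62.2 in *oschz1-1* and 63.2 in WT without one.

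**Figure D4:**
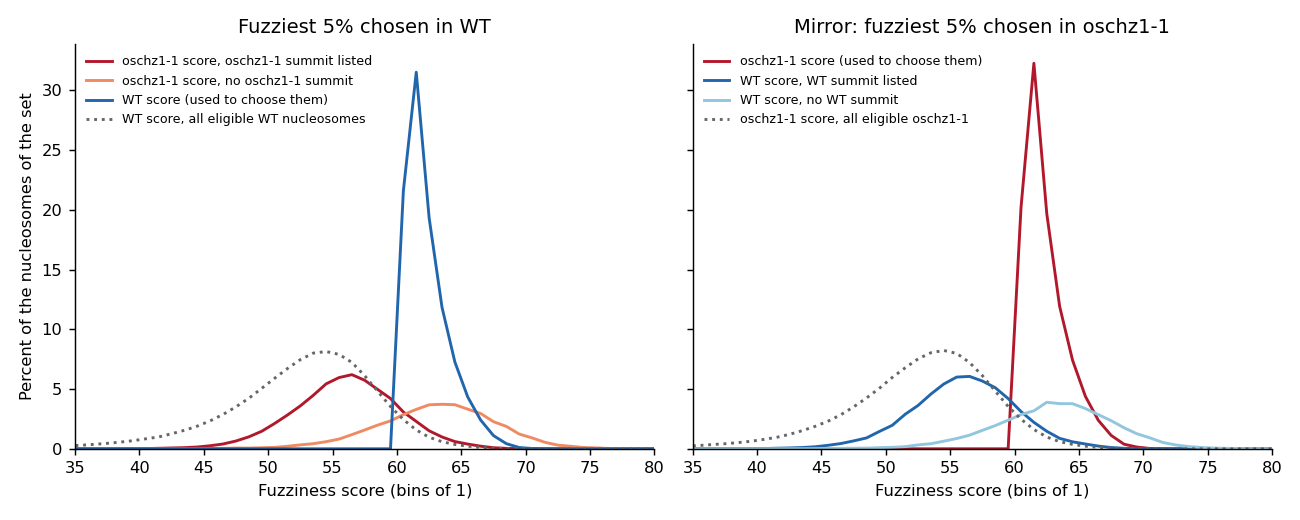
Distributions of the fuzziness score (bins of 1) for the fuzziest WT nucleosomes (left) and for the mirror selection of the fuzziest *oschz1-1* nucleosomes (right), as the percent of each set. Scores in the other map are drawn separately for nucleosomes with and without a summit there, and the dotted line is the score of all eligible nucleosomes. With a summit the scores centre at 56.1 in either direction, and without one at 63.2.

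A minority passed the rule of selection in both maps, and these are called fuzzy in both maps here. Of the fuzziest WT nucleosomes, 5182 (7.43%) were also in the mirror selection. This is 12.6% of those with an *oschz1-1* summit, against 3.71% of the eligible WT nucleosomes with one. The mirror selection requires a summit in *oschz1-1*, so the 28610 fuzziest nucleosomes without one could not pass it. Their scores in *oschz1-1* had a median of 63.2, above the *oschz1-1* limit of 60.5, but belong to no listed summit. Among all eligible WT nucleosomes, 2.97% were in the mirror selection, and the share was 6.03% in the class just below the fuzziest and 0.110% in the best-positioned 5%. The 5182 were 7.36% of the mirror selection, against 2.92% of all eligible *oschz1-1* nucleosomes that were among the fuzziest of WT. When the limit was set within each decile of occupancy, so that selected nucleosomes had the occupancy of the eligible ones, the share fuzzy in both maps was 12.5%, against 3.37% of the eligible nucleosomes. Membership of both selections, which requires a summit in each map, was therefore limited, and its share declined from the fuzziest class downwards.

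The nucleosomes fuzzy in both maps were held to a like limit in each, so that their scores and signals are given as a description. Their median signal was 13.1 in *oschz1-1* and 13.0 in WT, and their median score was 62.1 in *oschz1-1* and 62.0 in WT. Summits at least 50 bp apart were found for 21.2% of them, close to the 22.7% of all eligible nucleosomes with a summit in both maps. The share was 35.3% of the 35916 that had a summit in *oschz1-1* but were not among its fuzziest. These 35916 had a median signal of 17.2 in *oschz1-1* and 12.7 in WT. The nearest WT summit was at a median of 120 bp in both groups, but overlapping neighbours on both sides were found for 38.1% of the nucleosomes fuzzy in both maps, against 29.7% of the 35916. The 3 nucleosomes with the highest scores in both maps, named by a rule chosen after their values were seen, were on chromosomes 6 and 11. The first, on chromosome 6, had its summit at 21298741 in *oschz1-1* and at 21298731 in WT, with scores of 70.9 in *oschz1-1* and 68.8 in WT and signals of 10.1 in *oschz1-1* and 10.0 in WT. The next, on chromosome 11, had its summit at 25334121 in *oschz1-1* and at 25334086 in WT and a score of 68.0 in both. The last, on chromosome 6, had its summit at 24373756 in *oschz1-1* and at 24373761 in WT, with scores of 68.0 in *oschz1-1* and 67.9 in WT.

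The occupancy of the fuzziest nucleosomes was then compared between the genotypes. Over all 69708 the median signal was 13.5 in *oschz1-1* and 12.5 in WT, with a median log2 ratio of *oschz1-1* to WT of 0.046 (pseudocount 1), against -0.13 over all eligible nucleosomes. How the signals were scaled between the genotypes is not stated, so that the ratios are read beside those of the eligible nucleosomes. The sign of this ratio rested on the selection, as it was -0.24 at a minimum signal of 20, against -0.31 over the eligible nucleosomes, and -0.11 when the limit was set within each decile of occupancy, against -0.13. With the limit within deciles the difference from the eligible nucleosomes was 0.013, against 0.17 without it. A listed summit is a peak of the *oschz1-1* signal itself, so that the values with and without it are a description. At nucleosomes with an *oschz1-1* summit the median signal was 16.6 in *oschz1-1* and 12.7 in WT, with a median log2 ratio of 0.32, and 79.0% had a higher signal in *oschz1-1*. Over all eligible nucleosomes with an *oschz1-1* summit the median log2 ratio was -0.0057, and 49.5% had a higher signal in *oschz1-1*. At those without one it was 8.30 in *oschz1-1* and 12.2 in WT, with a median log2 ratio of -0.54, against -0.89 over all eligible nucleosomes without one. Signals were also compared at a limit of 2-fold after the pseudocount of 1 was added to both, which makes the limit stricter at low signals. A signal lower by this limit in *oschz1-1* was found at 6222 (8.93%), against 9.43% of the eligible nucleosomes. One higher by it was found at 2015 (2.89%), against 0.908%. In the mirror selection the median log2 ratio of *oschz1-1* to WT was -0.056, against 0.12 over all eligible *oschz1-1* nucleosomes. In either map, then, fuzzy nucleosomes that were kept were more occupied in the map that had not been used to choose them. The kept nucleosomes were not compared at equal occupancy, as the eligible ones with an *oschz1-1* summit had a median WT signal of 17.2.

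Fuzzy summits that were kept were displaced further. The distance between the summits of both maps had a median of 30 bp, against 20 bp over all eligible WT nucleosomes and 10 bp over the best-positioned ones. It was at least 50 bp for 13770 of the 41098 (33.5%), against 22.7% of the eligible and 3.20% of the best-positioned nucleosomes with a summit in both maps. The table lists summits up to 99 bp apart as the same nucleosome, and a larger displacement would be counted among the missing summits. The mirror selection had 33.7% at least 50 bp apart.

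Along the genome the fuzziest nucleosomes were spread almost evenly over chromosomes and less evenly over windows. Their share of the eligible WT nucleosomes lay between 4.72% on chromosome 5 and 5.57% on chromosome 7. Chromosome 7 was also highest in the mirror selection, with 5.74%, and the eligible nucleosomes of this chromosome had the highest share with an overlapping neighbour of the 12 chromosomes, 36.3%. In 376 windows of 1000000 bp with at least 1000 eligible nucleosomes, the share had a median of 4.94% with quartiles of 4.55% and 5.37%, and 347 windows (92.3%) lay between 4% and 6%. The highest windows were on chromosome 10 from 8000001 to 9000000 (6.88%, 209 of 3040), on chromosome 11 from 13000001 to 14000000 (6.86%, 285 of 4155) and on chromosome 7 from 29000001 to 30000000 (6.75%, 204 of 3021). The lowest were on chromosome 4 from 14000001 to 15000000 (3.19%, 76 of 2381), on chromosome 11 from 1 to 1000000 (3.45%, 110 of 3185) and on chromosome 3 from 34000001 to 35000000 (3.68%, 144 of 3917). Some high windows were adjacent, as on chromosome 4 from 8000001 to 11000000, with 6.43%, 6.74% and 6.72%. The mirror selection had 5.44%, 5.88% and 7.01% there. Whether high windows cluster was not tested. The exact 95% binomial interval, which covers counting over nucleosomes only, was 6.11% to 7.67% for the window of chromosome 11 with 6.86% and 2.52% to 3.98% for the lowest window.

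The windows were then set beside their spacing and occupancy. In the 3 highest windows between 36.9% and 40.5% of the eligible nucleosomes had an overlapping neighbour, and in the 3 lowest between 29.4% and 31.9%. Over the 376 windows the share of fuzziest nucleosomes had a Pearson's r of 0.75 and a Spearman's rho of 0.73 with the share of such neighbours, where both measures come from the same WT fragments. With the median WT signal of the eligible nucleosomes it had a Pearson's r of 0.51 and a Spearman's rho of 0.44, from the same fragments. Windows with more fuzzy nucleosomes thus had a higher median signal, although the fuzzy nucleosomes themselves had low signals. The shares of the WT and mirror selections had a Pearson's r of 0.65 and a Spearman's rho of 0.61, where the maps share the genome positions and the mapping. Retention hardly differed between chromosomes. The share of the fuzziest nucleosomes without an *oschz1-1* summit lay between 39.3% on chromosome 9 and 42.7% on chromosome 6, and the share fuzzy in both maps between 6.73% on chromosome 6 and 8.67% on chromosome 7.

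**Figure D5:**
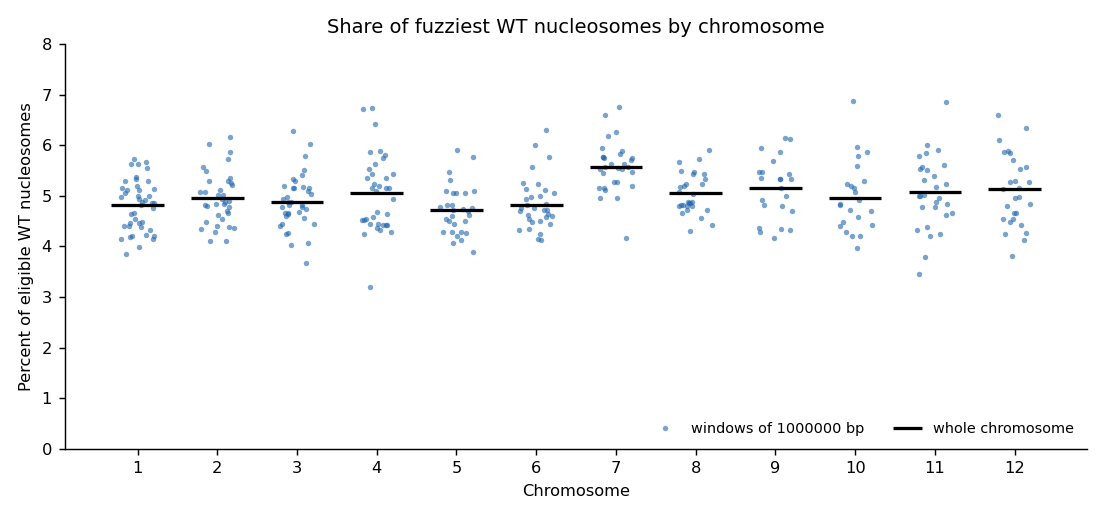
The percent of eligible WT nucleosomes that are among the fuzziest, by chromosome. Dots are windows of 1000000 bp with at least 1000 eligible nucleosomes, spread sideways for clarity, and lines are whole chromosomes. Chromosome 7 has the highest share (5.57%), and the windows range from 3.19% to 6.88%.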

How the data were processed

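Paired reads were mapped by the authors to MSU7 with Bowtie2, filtered for mapping quality and duplicates with Samtools, and passed to DANPOS, whose options are not given in the sources used here. Occupancy was deposited as the DANPOS signal at each summit, and any scaling between genotypes is not given in the sources used here. Fuzziness was deposited as a score, and summit positions are base coordinates; each holds 1 merged value per genotype. The control columns were taken as WT and the treated columns as *oschz1-1*, from the order of names in the authors' comparison. The authors' own p-values, FDRs and point values were not used.

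From the 17 columns (0 left unmapped), nucleosomes were chosen by a WT summit, a WT signal of at least 10 and a WT fuzziness score in the highest 5%. Log2 ratios used a pseudocount of 1. The members, measures and alternatives were chosen with earlier results of these data known. Nucleosomes were not used as replicates. Regions named are the 5 with the highest score, those next to the limit, the 3 longest runs (ties to the lower chromosome number, then position) and the 3 highest and 3 lowest windows, and, by a rule chosen after the values were seen, the 3 with the highest scores in both maps. The adjacent windows of chromosome 4 were also named after the values were seen. Functions were tested on simulated data with known answers. Calculations used pandas 2.3.3, numpy 2.4.6 and scipy 1.17.1 in Python 3.11.15, with plots by matplotlib 3.10.9. A genome of the MSU7 build was not used here, so genes and sequences were not analysed here.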

Additional observations from a re-analysis of the deposited data

How the results depend on the processing

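No paired analysis was possible because the table holds a single merged map per genotype, and no library could be left out in turn. A value is called moved below where it left the 95% interval of the main value, computed over nucleosomes, which are not replicates. The main values were 41.0% without an *oschz1-1* summit, 7.43% fuzzy in both maps, a median *oschz1-1* score of 58.5, a median log2 ratio of 0.046 and a nearest summit at 120 bp. With the highest 2.5% of scores they moved to 46.1%, 4.44%, 59.4, 0.053 and 115 bp, and with the highest 10% to 35.5%, 12.6%, 57.7 and 0.033, while the eligible share fuzzy in both maps was 1.34% and 6.45% at these limits, against 2.97%. With a minimum signal of 20 the loss was 19.3%, the score 56.8, the ratio -0.24 and the distance 125 bp. With the limit set within each decile of signal the loss was 33.3%, the share fuzzy in both maps 12.5%, the score 58.0 and the ratio -0.11. Counting as kept only those with any *oschz1-1* summit within 73 bp, listed for them or not, gave a loss of 37.3%. The highest window had 6.88%, and 8.28% with windows of 500000 bp. One setting was chosen after seeing the data, in which over members with an *oschz1-1* summit the score was 56.1 and the ratio 0.32. The cause of these moves was not tested. A minimum of 5, leaving out chromosomes 10 and 11, a pseudocount of 0.1, centring, neighbours of a signal of at least 10 and adding the unanchored sequences (69775 members) moved none of the values they bear on. All 36 alternatives of these 5 measures left the fuzziest nucleosomes on the same side of the eligible ones, though for the ratio with the limit within deciles by only 0.013. The unknown depth limits all values.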

Other observations

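Displaced fuzzy summits showed a slight preference of direction in both selections. Of the 13770 fuzziest WT nucleosomes with summits at least 50 bp apart, the *oschz1-1* summit lay towards lower coordinates in 7221 and towards higher coordinates in 6549. In the mirror selection the WT summit lay towards lower coordinates in 7295 and towards higher coordinates in 6631. The fuzzy summit was thus more often at the higher coordinate of the pair, whichever map it was chosen in. The median distance from a fuzzy WT summit was 135 bp to the preceding and 130 bp to the following WT summit, while both distances had a median of 200 bp for all eligible nucleosomes. Over all eligible WT nucleosomes the *oschz1-1* summit lay towards lower coordinates in 126887 and towards higher coordinates in 126501 of those at least 50 bp apart. The cause of this asymmetry was not tested.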
